A study of Mus musculus with 8 samples.

Results

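Apolipoproteins are the protein components of the lipoprotein particles that carry lipid in blood. Hepatocytes secrete most of them, and 10 apolipoprotein genes expressed by hepatocytes were chosen by symbol: Apoa1, Apoa2, Apoa4, Apoa5, Apob, Apoc1, Apoc3, Apoe, Apom and Apof. Every array probe that the probe annotation used here assigns to one of these symbols and that had a detection p-value of 0.05 or less in 1 or more arrays was taken. This gave 8 probes of 6 genes, Apoa2, Apoa4 (3 probes), Apoa5, Apob, Apof and Apom, out of 19618 detected probes and 45281 probes in all. Apoa1, Apoc1, Apoc3 and Apoe had no probe under their name in that annotation and were not analysed here. The annotation names only probes of the authors' deposited value table, so this says nothing about the expression of these genes. All 8 probes had a detection p-value of 0 in all 8 arrays, so none lay near the detection limit.

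The study asked which transcripts of adult mouse hepatocytes depend on GATA4, a zinc finger transcription factor that binds GATA sequences. Both groups were Gata4 fl/fl mice on a CD1 x 129S1/SvImJ background, between 2 and 3 months of age, and hepatocytes were taken 2 weeks after intravenous injection of an adeno-associated virus. The AAV-Cre group (4 samples) received AAV8-Tbg-Cre, in which the hepatocyte-selective thyroxine-binding globulin promoter drives Cre recombinase, and the AAV-GFP group (4 samples) received AAV8-Tbg-GFP, so that the controls carried the floxed allele and a virus as well. Signals are given on a normalized log2 scale and differences are AAV-Cre minus AAV-GFP.

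Apob is the structural protein of very low density lipoprotein, on which triglyceride leaves the liver, and its assembly begins as the chain is lipidated in the endoplasmic reticulum. Apoa2 is a main protein of high density lipoprotein, Apom binds sphingosine-1-phosphate on the same particles, and Apof was described in human plasma as an inhibitor of lipid transfer. Apoa4 is carried on triglyceride-rich and high density particles and, in the mouse, is made in liver as well as intestine. Apoa5 promotes the clearance of triglyceride by lipoprotein lipase.

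The stretch before each start site was read because the deleted factor binds GATA sequences. RefSeq promoter windows (GRCm38.p6) matched 7 of the 10 genes with 11 windows, and 5 of the 6 measured genes with 7 windows, of which 250 bases upstream of the start were searched on both strands. The motif was GATA followed by A or G, alone or preceded by A or T. Of the 4 windows of members without a named probe, 2 held the longer form, 1 in Apoa1 and 1 in Apoe. None of the 7 windows of measured genes held the longer form, which was present in 26.5% of 32851 windows of the same length. The shorter form, which includes every match of the longer one, was present in 2 of the 7 windows and in 37.4% of all windows. These are the Apoa2 window at chr1:171224804-171225053 (plus strand), 1 of 2 windows of this gene, with its match beginning 182 bases before the start, and the Apob window at chr12:7977427-7977676 (plus strand), with its match 153 bases before the start. They are shown 5′ to 3′ with the match in capitals, which in Apob lies on the opposite strand.
Apoa2: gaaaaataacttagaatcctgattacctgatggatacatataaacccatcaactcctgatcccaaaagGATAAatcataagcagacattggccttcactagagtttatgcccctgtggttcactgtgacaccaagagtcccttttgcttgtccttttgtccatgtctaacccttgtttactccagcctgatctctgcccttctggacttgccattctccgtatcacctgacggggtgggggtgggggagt
Apob: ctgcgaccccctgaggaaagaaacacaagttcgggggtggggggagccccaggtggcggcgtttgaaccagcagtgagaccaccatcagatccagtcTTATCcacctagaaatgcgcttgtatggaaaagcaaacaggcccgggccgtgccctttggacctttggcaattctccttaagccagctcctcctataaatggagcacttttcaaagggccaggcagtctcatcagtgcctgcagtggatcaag
A match is a string of letters, and binding was not measured in the data described here. The study mapped GATA4 binding in whole liver separately, by chromatin immunoprecipitation and sequencing, and placed most occupied sites outside promoter-proximal regions. Those sites were not used here, so a window without a match does not show that a gene is unbound.

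Among all arrays, between 14788 and 16387 probes were detected, and AAV-Cre replicates 3 and 4 had the fewest (14788 and 15067). The X-linked transcript Xist was at 13.33 and 13.78 log2 in AAV-GFP replicates 1 and 4 and between 5.07 and 5.33 in the other 6 arrays. All 4 AAV-Cre arrays but only 2 of 4 AAV-GFP arrays were thus low in it. The Y-linked transcript Uty was not detected in AAV-GFP replicates 1 and 4 (6.08 and 5.93). It was detected in the other 6 arrays, between 7.09 and 7.56. By these transcripts AAV-GFP replicates 1 and 4 read as female and the other 6 arrays as male, so sex was unbalanced between the groups. The labels give no sex, and its part in the values below was not tested. For the members, and for the leading genes of the other lists where it moved the difference by more than 1.5 times, the value without AAV-Cre replicates 3 and 4 or without AAV-GFP replicates 1 and 4 is given beside the result. The labelled Gata4 probe was detected in 1 of 8 arrays and lay near background, at 6.28, 5.85, 5.72 and 5.84 in AAV-Cre and 5.31, 5.37, 5.02 and 5.10 in AAV-GFP, and the files do not say whether it lies in the deleted part, so that it does not check the deletion. Hepatocyte markers were measured for 9 of 12 genes, with summed signals of 251993 to 308020 in AAV-Cre and 267781 to 289505 in AAV-GFP. The median hepatocyte marker difference was -0.16, with 3 of 10 probes higher in AAV-Cre. Summed signals of 9 of 12 Kupffer cell and macrophage markers were 1921 to 2847 in AAV-Cre and 1211 to 2081 in AAV-GFP, and of 8 of 9 endothelial markers 7478 to 10864 in AAV-Cre and 4956 to 10793 in AAV-GFP. Of the Kupffer cell and macrophage probes 8 of 10 were higher in AAV-Cre (median difference 0.49), and of the endothelial probes 12 of 12 (median 0.42). Cholangiocyte markers were measured for 1 of 6 genes, Sox9, whose 2 probes were both higher in AAV-Cre (median 0.74), with sums of 1392 to 2678 in AAV-Cre and 586 to 1340 in AAV-GFP that did not overlap. Stellate cell markers, 4 of 8 genes, summed to 6516 to 7492 in AAV-Cre and 3900 to 8482 in AAV-GFP (3 of 5 probes higher in AAV-Cre, median 0.12), and no lymphocyte marker gene of 6 was detected under its name. None of the marker probes was called. The part of these other cells in the values below was not tested.

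Signals of the apolipoprotein probes stayed clear of the top of the scale. The highest signal of an array lay between 70406 and 71285, and the 64 values of the 8 probes ran from 1.35% of it (Apoa2) to 67.9% (Apoa4 probe ILMN_1250349, AAV-GFP replicate 1). None of the 64 reached 90% or 75% of the highest signal, and 10 reached 50%. By the median over the 8 arrays, Apoa2 was at 4.07%, Apoa5 at 11.9%, the Apoa4 probes ILMN_2754104, ILMN_2834123 and ILMN_1250349 at 13.1%, 24.3% and 32.4%, Apom at 44.5%, Apob at 46.6% and Apof at 51.2%, where a percentage describes 1 probe's place on the scale and does not rank genes. Closeness to the top matters because the range of a probe over the 8 arrays shrinks there. The median range was 0.55 log2 for 412 probes between 25 and 50% of the highest signal and 0.55 for 148 between 50 and 75%. It was 0.42 for 69 probes between 75 and 90% and 0.085 for 112 probes at 90% or more. Lower on the scale it was 0.59 for 1045 probes between 10 and 25% and 0.97 for 17832 probes under 10%. The last is the class of Apoa2 and also holds the probes near background. Within its own class, the range of Apoa2 (2.03 log2) was larger than that of 91.8% of probes, and those of the Apoa4 probes (1.83, 1.49 and 1.48) were larger than those of 92.4%, 93.0% and 92.5%. Apof (0.97) exceeded 80.8% of its class, Apoa5 (0.93) 73.0%, Apob (0.68) 64.6% and Apom (0.44) 32.8%.

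**Figure D1:**
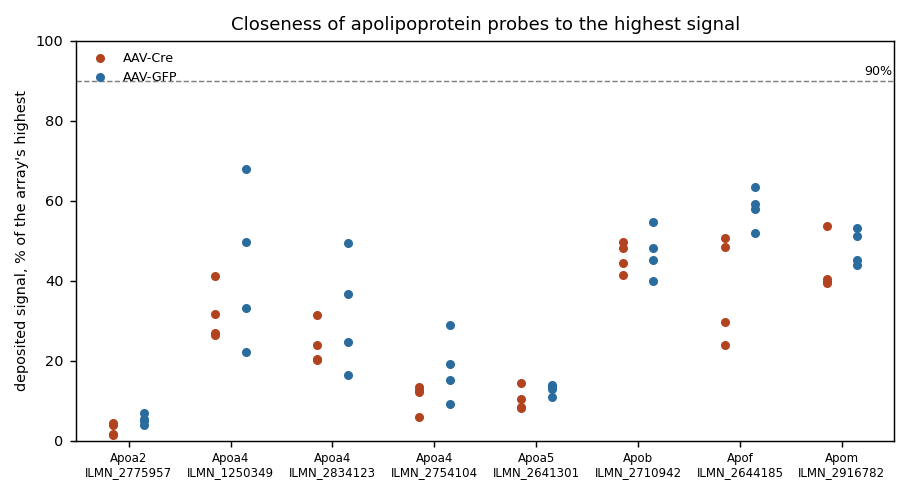
Deposited signal of each apolipoprotein probe in each array as a percent of the highest signal of that array, with AAV-Cre points left of AAV-GFP points (n = 4 each). The dashed line marks 90%, and all points lie between 1.35% and 67.9%.

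None of the 8 apolipoprotein probes passed the test at an adjusted p of 0.25 (limma, Benjamini-Hochberg over 19618 probes), where 0.0051% of all probes did. A SAM statistic, the kind of test the study used, was written anew and called none of the 8 at an FDR of 25%, with 10 of all probes (0.051%) called. The count depended on the values and the threshold, in settings chosen after seeing the data. On the authors' value table the same statistic called 78 of 16820 probes at 25%, again none of them a member, and 2241 (13.3%) at 30%, Apoa2 and Apof among them, while on the normalized values it called 16 probes and no member at 30%. How this version differs from the software the study ran was not resolved, so its counts hold for the version run here. At an unadjusted p under 0.05, 1 of 8 passed (Apoa2), against 9.46% of all probes. That count was 2 with no background correction and in the authors' value table, and 0 without AAV-GFP replicates 1 and 4 or without AAV-Cre replicates 3 and 4. Of the 8 probes, 6 were lower in AAV-Cre, against 43.6% of all probes below 0, and the median of the 8 differences was -0.15 against 0.044 over all probes. The 3 Apoa4 probes were all among the 6, so that 1 gene weighs 3 times in this count and in the median. Without AAV-GFP replicates 1 and 4, 3 of the 8 were lower. For each of the 8 probes the AAV-Cre and AAV-GFP values overlapped, while 4.86% of all probes had groups that did not overlap.

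**Figure D2:**
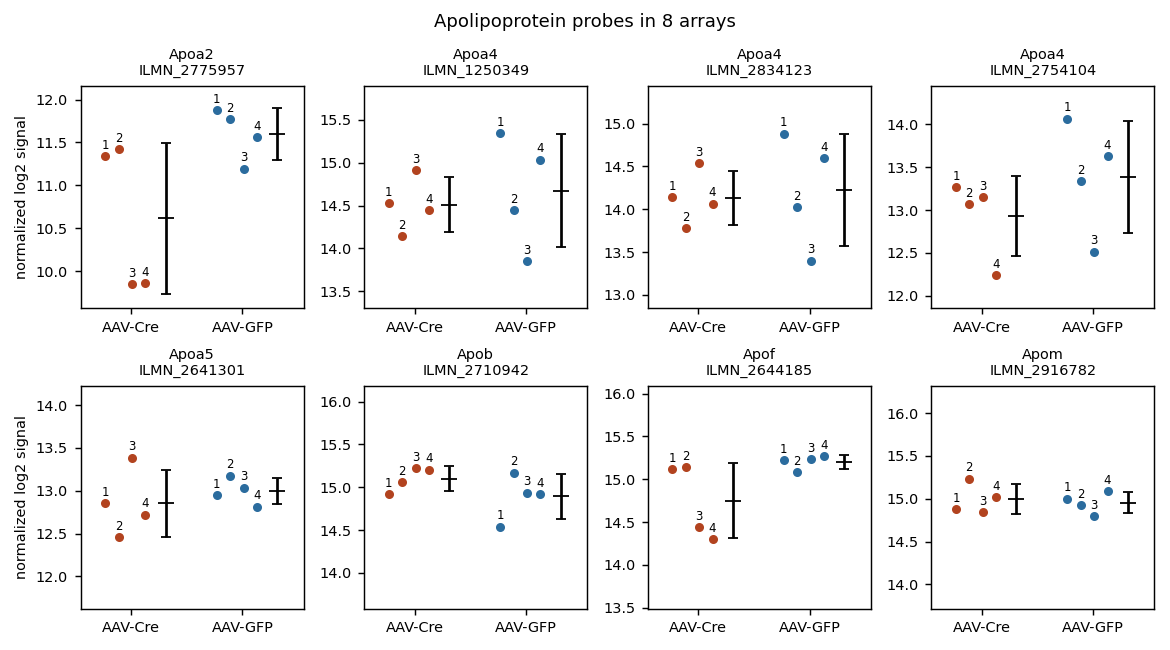
Normalized log2 signal of the 8 apolipoprotein probes in each array, numbered by replicate, with AAV-Cre left of AAV-GFP in every panel and the mean and SD beside the points (n = 4 each). All vertical axes span the same number of log2 units. Apoa2 and Apof fall lowest in AAV-Cre replicates 3 and 4, and the Apoa4 probes lie highest in AAV-GFP replicates 1 and 4.

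Apoa2, of high density lipoprotein, had the largest difference of the 8. Its signal was 11.34, 11.42, 9.85 and 9.86 in AAV-Cre samples and 11.88, 11.77, 11.20 and 11.56 in AAV-GFP samples. AAV-Cre replicates 3 and 4 were the 2 lowest arrays, 1.34 log2 below all others, and AAV-Cre replicates 1 and 2 lay within the span of the AAV-GFP samples. The difference was -0.98 (SE 0.40, 95% interval -1.89 to -0.083), a 1.98-fold lower signal, with an unadjusted p of 0.0356 and an adjusted p of 0.52 in limma. Without AAV-Cre replicates 3 and 4 it was -0.22 (SE 0.22), and without AAV-GFP replicates 1 and 4 -0.87 (SE 0.55).

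Apof, known from human plasma as the lipid transfer inhibitor, had the same 2 arrays lowest. It was at 15.12, 15.14, 14.44 and 14.31 in AAV-Cre samples and at 15.22, 15.08, 15.23 and 15.27 in AAV-GFP samples. AAV-Cre replicates 3 and 4 lay 0.64 log2 below all other arrays, and the other 6 arrays lay between 15.08 and 15.27. The difference was -0.45 (SE 0.21, 95% interval -0.94 to 0.035), with an adjusted p of 0.52 (limma), and -0.071 (SE 0.14) without AAV-Cre replicates 3 and 4. AAV-Cre replicates 3 and 4 were the 2 lowest arrays in 13.2% of all probes, and lay 0.5 log2 or more below the rest in 6.03%, against 2 of the 8 apolipoprotein probes for each count.

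Apoa4, which in the mouse is expressed in liver, varied more within a group than between the groups. Probe ILMN_1250349 read 14.53, 14.14, 14.92 and 14.45 in AAV-Cre samples and 15.34, 14.45, 13.85 and 15.04 in AAV-GFP samples. Probe ILMN_2834123 read 14.14, 13.78, 14.54 and 14.06 in AAV-Cre samples and 14.88, 14.03, 13.40 and 14.60 in AAV-GFP samples. Probe ILMN_2754104 read 13.27, 13.07, 13.15 and 12.24 in AAV-Cre samples and 14.07, 13.34, 12.52 and 13.63 in AAV-GFP samples. For all 3 probes AAV-GFP replicates 1 and 4, the arrays with Xist, were the 2 highest, which held for 4.08% of all probes, and the 3 probes measure 1 gene and are not independent. The differences were -0.16 (SE 0.32), -0.095 (SE 0.32) and -0.46 (SE 0.35), with adjusted p-values of 0.87, 0.93 and 0.62 (limma). Without AAV-GFP replicates 1 and 4 the differences were 0.36 (SE 0.28), 0.42 (SE 0.28) and 0.0047 (SE 0.37), with adjusted p-values of 0.81, 0.81 and 0.998 (limma). The lower mean of AAV-Cre thus rested on those arrays, but leaving out the 2 highest arrays had to raise the differences. With AAV-Cre replicates 3 and 4 left out instead they were -0.33 (SE 0.42), -0.26 (SE 0.41) and -0.22 (SE 0.40).

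Apoa5, the lipoprotein lipase cofactor, was at 12.86, 12.46, 13.39 and 12.72 in AAV-Cre samples and at 12.95, 13.18, 13.04 and 12.82 in AAV-GFP samples. Its AAV-Cre values enclosed all AAV-GFP values, and the difference was -0.14 (SE 0.20, 95% interval -0.60 to 0.32, adjusted p = 0.81 by limma). Single AAV-Cre arrays moved it, to -0.0077 without replicate 2 and to -0.32 without replicate 3. It was -0.34 (SE 0.19) without AAV-Cre replicates 3 and 4, and -0.25 (SE 0.27) with AAV-GFP replicates 1 and 4 left out. Apob was at 14.92, 15.06, 15.22 and 15.21 in AAV-Cre samples and at 14.54, 15.17, 14.94 and 14.92 in AAV-GFP samples. The lowest value was AAV-GFP replicate 1, and the difference was 0.21 (SE 0.16, 95% interval -0.16 to 0.58, adjusted p = 0.64 by limma). Without AAV-GFP replicates 1 and 4 it was 0.043 (SE 0.18), and without AAV-Cre replicates 3 and 4 it was 0.096 (SE 0.21). Leaving out AAV-GFP replicate 1 alone gave 0.0895. Apom was at 14.88, 15.23, 14.85 and 15.02 in AAV-Cre samples and at 15.00, 14.92, 14.80 and 15.09 in AAV-GFP samples. It had the smallest range of the 8 probes, and the difference was 0.042 (SE 0.14, 95% interval -0.28 to 0.36, adjusted p = 0.93 by limma). It was 0.10 (SE 0.18) without AAV-Cre replicates 3 and 4, and 0.13 (SE 0.18) with AAV-GFP replicates 1 and 4 left out. The median SE over all probes was 0.21. In simulated arrays with independent noise, 100 probes were changed by 1 log2 and 100 by 2, of which 66% and 95% were called. Those arrays lacked the shifts that many probes share in the arrays here, so these shares may be too high for these data. Differences of the sizes above could go undetected with 4 samples a group.

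**Figure D3:**
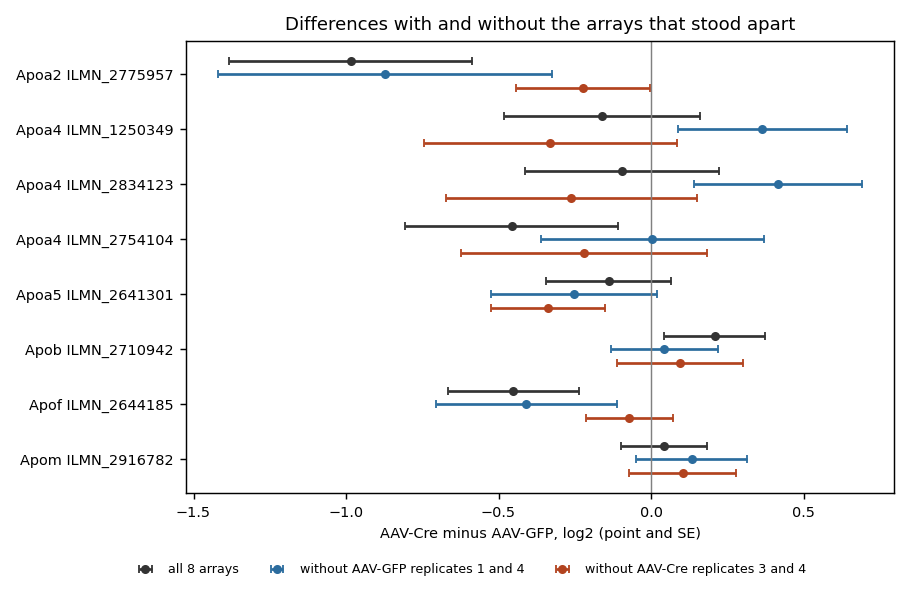
AAV-Cre minus AAV-GFP difference (point) and SE (bar) on the log2 scale for each apolipoprotein probe, with all 8 arrays (black), with AAV-GFP replicates 1 and 4 left out (blue) and with AAV-Cre replicates 3 and 4 left out (red). The Apoa2 difference is -0.98 over all arrays and -0.22 in the red setting, and the Apoa4 probes lie at 0.36, 0.42 and 0.0047 in the blue setting.

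The 3 Apoa4 probes were compared with each other within an array, where the size of a gap depends on how each probe hybridises and only its difference between the groups was tested. Probe ILMN_1250349 lay 0.39, 0.36, 0.38 and 0.38 log2 above ILMN_2834123 in AAV-Cre samples and 0.46, 0.42, 0.45 and 0.44 above it in AAV-GFP samples. The 4 AAV-Cre gaps were all smaller than the 4 AAV-GFP gaps, by 0.065 log2 on average, with an exact two-sided permutation p of 0.0286, the smallest that 4 against 4 can give, and 0.0857 after adjustment over the 3 pairs. Against ILMN_2754104, ILMN_1250349 lay 1.26, 1.07, 1.77 and 2.21 above in AAV-Cre samples and 1.28, 1.11, 1.34 and 1.41 above in AAV-GFP samples. The difference of 0.30 had an exact permutation p of 0.4 (adjusted 0.4), and the wide gaps were those of AAV-Cre replicates 3 and 4, without which it was -0.11. Probe ILMN_2834123 against ILMN_2754104 gave 0.36 (exact permutation p = 0.286, adjusted 0.4), and -0.043 without these 2 arrays.

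**Figure D4:**
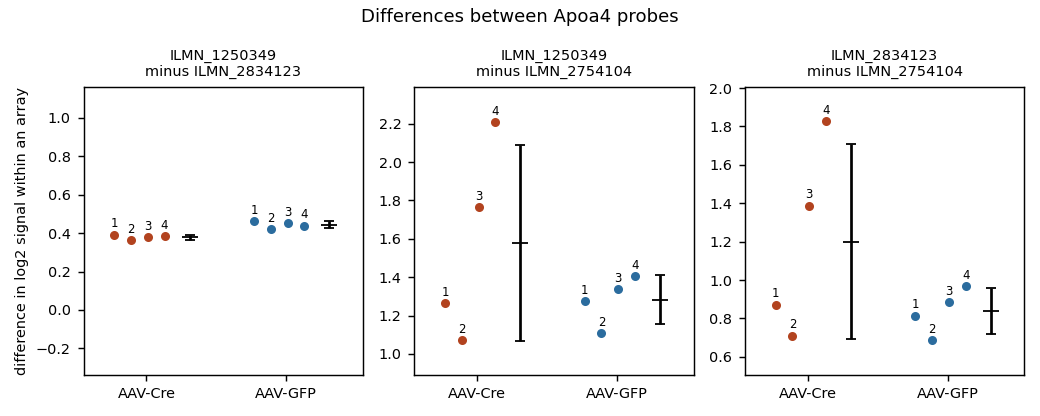
Difference between 2 Apoa4 probes within each array, on the log2 scale, numbered by replicate, with AAV-Cre left of AAV-GFP and the mean and SD beside the points (n = 4 each). AAV-Cre replicates 3 and 4 give the widest gaps in the panels that involve ILMN_2754104, up to 2.21.

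Genes whose profile over the 8 arrays lay closest to that of a member were sought among 9634 named genes, by the root mean square gap between profiles centred on their mean. Only Apoa2 and Apoa4 ranged over more than 1 log2 unit. The genes closest to Apoa2 were Nadk2 (a mitochondrial NAD kinase, gap 0.11), Mtrf1l (a mitochondrial release factor, 0.12) and Arcn1 (a coatomer subunit, 0.13), each with its lowest values in AAV-Cre replicates 3 and 4, such as 5.81 and 5.76 for Nadk2 against 7.30 or more in the other 6 arrays. The genes closest to Apoa4 probe ILMN_1250349 were Wfdc10 (0.21), Mkx (a homeobox factor, 0.22) and Lcn12 (a lipocalin, 0.23). Wfdc10 lay near background, between 5.21 and 6.37 log2 over the 8 arrays. Nadk2 and Arcn1 (5.55 and 5.89) were near background in AAV-Cre replicates 3 and 4. The likenesses are over 8 arrays and carry no test.

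Other apolipoprotein genes were measured for 7 of 20 genes with 8 probes, of which 0 were called. Of these probes 4 were higher and 4 lower in AAV-Cre, and 0 had an unadjusted p under 0.05, against 9.46% of all probes. Their median difference was -0.030. Apoh, the phospholipid-binding beta-2-glycoprotein I, was at 13.42, 13.58, 11.76 and 11.78 in AAV-Cre samples and at 13.50, 13.51, 13.56 and 13.56 in AAV-GFP samples, and Apon was at 13.17, 13.43, 10.76 and 10.44 in AAV-Cre samples and at 13.23, 13.05, 13.02 and 13.28 in AAV-GFP samples. In both, AAV-Cre replicates 3 and 4 were again the 2 lowest, by 1.65 and 2.26 log2, as in Apoa2 and Apof. These arrays were the 2 lowest in 3 of the 8 probes of this list, against 13.2% of all probes. The Apoh and Apon differences were -0.90 (SE 0.43) and -1.19 (SE 0.66), both with adjusted p-values over 0.5 in limma, and -0.031 (SE 0.14) and 0.16 (SE 0.16) without those 2 arrays. Apoc2, the activator of lipoprotein lipase, had differences of 0.25 and 0.17 in its 2 probes, the first of which was 0.38 without AAV-Cre replicates 3 and 4. Apoo, a subunit of the mitochondrial inner membrane organising complex, was near background and detected in 4 of 8 arrays. Its difference was 0.48 (SE 0.31), but 0.13 with no background correction and 0.18 without AAV-GFP replicates 1 and 4.

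**Figure D5:**
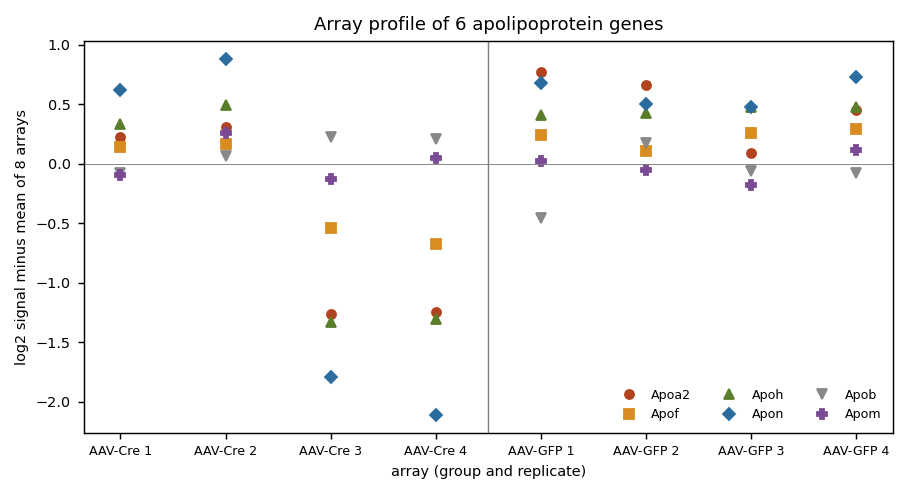
Normalized log2 signal of Apoa2, Apof, Apoh, Apon, Apob and Apom in each array minus the gene's mean over the 8 arrays, with the 4 AAV-Cre arrays left of the line and the 4 AAV-GFP arrays right of it. Apoa2, Apof, Apoh and Apon lie lowest in AAV-Cre replicates 3 and 4, while Apob and Apom do not. The genes were chosen for display and do not stand for all apolipoprotein probes. The Apoa4 and Apoa5 probes, not shown, did not have these arrays as the 2 lowest.

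Genes of Apob mRNA editing and particle assembly were measured for 17 of 18 genes with 25 probes, of which 0 were called, with 16 higher and 9 lower in AAV-Cre and a median of 0.11. At an unadjusted p under 0.05, 2 were higher and 3 lower, against 5.2% and 4.26% of all probes. A1cf, the RNA-binding partner of the Apob editing enzyme, was at 10.24, 10.36, 10.47 and 10.11 in AAV-Cre samples and at 11.17, 11.19, 10.99 and 10.77 in AAV-GFP samples. All 4 AAV-Cre values lay below all 4 AAV-GFP values, with a difference of -0.74 (SE 0.15), an unadjusted p of 0.000936 and an adjusted p of 0.52 (limma). A1cf was among the genes the study lists as lower in AAV-Cre on these samples, so its direction is no independent evidence. The difference was -0.72 without AAV-Cre replicates 3 and 4 and -0.80 without AAV-GFP replicates 1 and 4. Tm6sf2, a factor in lipidation of very low density lipoprotein, was at 10.25, 10.14, 10.18 and 10.43 in AAV-Cre samples and at 11.39, 10.53, 10.84 and 11.83 in AAV-GFP samples, with groups that did not overlap, a difference of -0.90 (SE 0.27) and an adjusted p of 0.52 (limma). The AAV-GFP values were highest in the Xist arrays, replicates 1 and 4, and without them the difference was -0.44 (SE 0.18). Klhl12, an adaptor of a ubiquitin ligase for large secretory carriers, was at 6.73, 6.75, 5.56 and 5.88 in AAV-Cre samples and at 7.79, 7.10, 7.19 and 6.85 in AAV-GFP samples, with groups that did not overlap and AAV-Cre replicates 3 and 4 lowest. Its unadjusted p was 0.0116, and the difference was -0.51 (SE 0.27) without those 2 arrays. The probe was detected in 6 of 8 arrays, and the difference over all arrays was -0.30 with no background correction. Klhl12 had an adjusted p of 0.52 (limma), as had Cideb, which acts in lipidation of very low density lipoprotein, with a difference of 0.38 (SE 0.15). Mttp, the transfer protein that lipidates Apob, differed by -0.35 (SE 0.19) and Apobec1, the editing enzyme, by 0.19 (SE 0.21), values named here after they were seen.

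Genes of plasma remodelling and lipases were measured for 11 of 20 genes with 19 probes, none called, with 12 higher and 7 lower in AAV-Cre and a median of 0.064. At an unadjusted p under 0.05, 1 was higher and 0 lower, against 5.2% and 4.26% of all probes. Gpihbp1, which anchors lipoprotein lipase on capillaries, had 0.65 (SE 0.23) at 1 probe, detected in 4 of 8 arrays, and 0.18 there with no background correction. Pon1 had -0.69 (SE 0.32), detected in 7 of 8 arrays, and -0.25 with no background correction, and without AAV-Cre replicate 2 it was -0.35. Pon3, like Pon1 an esterase of high density lipoprotein, had -0.79 (SE 0.37) at 1 of its 2 probes and -0.50 with no background correction. AAV-Cre replicates 3 and 4 were its 2 lowest arrays, by 1.02 log2, and without them the difference was -0.11 (SE 0.24). Lpl, lipoprotein lipase, was at -1.24 (SE 0.56), with AAV-GFP replicate 3 at 10.38 and the other 7 arrays at 8.39 or less, and at -0.66 with no background correction. Without AAV-GFP replicate 3 it was -0.69.

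Receptor and uptake genes were measured for 9 of 17 genes with 19 probes, none called. Of these probes 16 were higher and 3 lower in AAV-Cre, against 43.6% of all probes lower. Their median was 0.39 against 0.044 for all probes. At an unadjusted p under 0.05, 5 were higher and 0 lower, against 5.2% and 4.26% of all probes. The 5 were the 3 Vldlr probes, the Scarb1 probe and the Sort1 probe of smallest p. All 3 Vldlr and all 4 Sort1 probes were among the 16 higher, so these genes weigh more than once in that count and in the median. The endothelial markers were higher in AAV-Cre as well, 12 of 12 probes with a median of 0.42, and their part in this list was not tested. Scarb1, the high density lipoprotein receptor, was at 8.35, 8.84, 8.36 and 8.25 in AAV-Cre samples and at 7.83, 7.90, 7.79 and 8.16 in AAV-GFP samples, and its groups did not overlap (difference 0.53, SE 0.17, adjusted p = 0.52 by limma). With no background correction the Scarb1 difference was 0.28. Vldlr, of the low density lipoprotein receptor family, differed by 1.56, 1.51 and 1.45 at its 3 probes, and Sort1, a sorting receptor that binds Apob, by 0.79, 0.73, 0.54 and 0.48 at its 4 probes. For these 7 probes AAV-Cre replicate 4 was the highest array. At their probes of smallest p, Vldlr was detected in 5 of 8 arrays and Sort1 in 7, and with no background correction the differences were 0.58 and 0.26. Without AAV-Cre replicates 3 and 4 that of Vldlr was 0.99 (SE 0.60), and without AAV-Cre replicate 4 that of Sort1 was 0.52. Pdzk1 was lower at 1 of its 3 probes (-0.50, SE 0.25, adjusted p = 0.52 by limma) and higher at the others (0.20 and 0.17). At the lower probe AAV-Cre replicates 3 and 4 lay 0.63 log2 below all other arrays. Without these arrays its difference was -0.084 (SE 0.20).

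Of the regulators of apolipoprotein genes, 30 of 41 were measured with 40 probes, none called, with 21 higher and 19 lower in AAV-Cre and a median of 0.027. At an unadjusted p under 0.05, 3 were higher and 1 lower, against 5.2% and 4.26% of all probes. Foxa2, a forkhead factor, was at 8.05, 8.48, 8.85 and 8.24 in AAV-Cre samples and at 8.88, 9.83, 9.04 and 8.95 in AAV-GFP samples, with groups that did not overlap and a difference of -0.77 (SE 0.25, adjusted p = 0.52 by limma). Nr1d1, a clock repressor, differed by 1.19 (SE 0.39) and Foxa1 by 0.71 (SE 0.28), both at the same adjusted p. The study lists Nr1d1 as higher in AAV-Cre on these samples, so its direction is no independent evidence. Without AAV-Cre replicates 3 and 4 the Foxa1 difference was 0.39 (SE 0.31). With no background correction Foxa2 was at -0.48 and Nr1d1 at 0.74. Hnf4a, a main activator of apolipoprotein genes, was at 13.99, 14.18, 13.64 and 14.04 in AAV-Cre samples and at 14.22, 13.90, 14.03 and 13.97 in AAV-GFP samples, a difference of -0.067 (SE 0.16), and Gata6, a GATA factor of the same subfamily, differed by 0.067 (SE 0.19), both named after their values were seen. The smallest adjusted p among the lists was 0.52 (limma), and the 4 AAV-Cre values of Gata4 lay above the 4 AAV-GFP values (difference 0.72, SE 0.16) at a level near background.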

How the data were processed

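Total RNA of hepatocytes was amplified, biotin-labelled and measured on 8 bead arrays of the Illumina MouseWG-6 v2 design, each holding 1 sample. The deposited non-normalized table, exported by the authors with GenomeStudio, holds a linear intensity and a detection p-value per probe. The deposited value table holds the intensity after quantile normalization by the authors. Probes were named from an annotation that covers only the 16820 probes of the authors' value table and gives 1 symbol to 14408 probes. It can be old, and symbols were updated from RefSeq. The 2798 detected probes outside that table carry no name here, so a gene without a named probe may still have a probe on the array.

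Intensities were corrected by normexp from the detection p-values (offset 16), then quantile-normalized and log2-transformed (neqc in limma 3.58.1, R 4.3.3). Probes detected in no array at a p of 0.05 were left out. The 2 groups were tested against each other by lmFit and eBayes with Benjamini-Hochberg adjustment over all detected probes, called at 0.25, a threshold of the study. The methods' SAM statistic was written anew and used as an alternative. Probe pairs were compared by an exact permutation test. The code was tested on simulated data. Up to 4 genes per list, by the smallest p, were named, with all members and the 3 genes closest in profile to a member that ranged over more than 1 log2 unit. The members and lists were chosen with earlier results of these data known. The labels do not say that samples came from separate mice, so p-values cover only the sample-to-sample spread. By Xist and Uty the AAV-GFP samples read as both sexes, so that group held more than 1 mouse. Whether samples of the same sex, such as all AAV-Cre samples, came from separate mice is not known. Part of the spread may thus be technical, and no pair of arrays held identical values. The number of arrays limits the precision. Other normalizations, filters, probe choices, array weights, thresholds, a block by replicate number and arrays left out were tried.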

Additional observations from a re-analysis of the deposited data

Results flagged for a closer look

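Among 62 groups of 4 values examined for the apolipoprotein and list probes, 3 held a sample far from its group, none of them in an apolipoprotein member. Chance marks about 1 in 20 such groups. The Apoo probe was at 6.89 in AAV-GFP replicate 3 and between 5.47 and 5.60 in the other 3 AAV-GFP samples. The Cideb probe was at 14.21 in AAV-Cre replicate 1 and between 14.55 and 14.61 in the other 3 AAV-Cre samples. The Lpl probe was at 10.38 in AAV-GFP replicate 3 and between 8.14 and 8.20 in the other 3 AAV-GFP samples.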

How the results depend on the processing

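The count of called apolipoprotein probes was 0 at an adjusted p or FDR of 0.25 under every alternative run. That of the other lists was 0 as well, except for 1 (A1cf, FDR 0.136, difference -0.63) by SAM on the authors' value table, where 78 of all probes were called, and at an FDR of 30% that test called 2 members and 15 list probes. Both settings were chosen after seeing the data. Adjusted p-values of the members were no lower than 0.286 (Apoa2 without AAV-Cre replicate 1). Correlations between the groups by replicate number were 0.19, 0.068, 0.017 and 0.13. The AAV-GFP sample of the same number was the best match for AAV-Cre replicates 1 and 4 but not for 2 and 3. This does not settle whether the samples were paired. With the replicate number as a block 0 members were called. Over all probes 1 was called, 0 with detection in all arrays, 2 with an offset of 50, with no background correction, with 75th-percentile scaling and with array weights, 3 in the authors' value table, 10 by SAM on the normalized values, and up to 10 with 1 array left out. Of the unadjusted calls 55.0% were higher in AAV-Cre, 38.2% after cyclic loess and 61.3% after 75th-percentile scaling, which put the median of all probes at 0.12. The number of values near the highest signal was 10 at a limit of 50%.

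Directions turned for Apom (-0.0042 after cyclic loess, and -0.038 to 0.091 with 1 array left out, below 0 without AAV-Cre replicate 2 or AAV-GFP replicate 3 at -0.010). They turned for Apoa4 probe ILMN_1250349 (0.013 with array weights, 0.36 without AAV-GFP replicates 1 and 4, and -0.43 to 0.063 with 1 array left out, above 0 without AAV-GFP replicate 1), for ILMN_2834123 (0.077 with array weights, 0.42 without AAV-GFP replicates 1 and 4, and -0.37 to 0.12 with 1 array left out, above 0 without AAV-Cre replicate 2 or AAV-GFP replicates 1 or 4) and for ILMN_2754104 (0.0047 without AAV-GFP replicates 1 and 4). Apon turned to 0.16 without AAV-Cre replicates 3 and 4, and so did the gaps of ILMN_1250349 (-0.11) and ILMN_2834123 (-0.043) to ILMN_2754104, a setting for the gaps chosen after seeing the data. The causes were not tested. Of the 3 genes most like Apoa2, 0 were shared with no background correction or with the authors' value table, and 1 of the 3 most like Apoa4 was shared with each of these and with cyclic loess, settings also chosen after seeing the data.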
